A study of Rattus norvegicus with 10 samples.

Results

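The NAD salvage genes examined here were the nicotinamide riboside kinases Nmrk2 and Nmrk1, the nicotinamide phosphoribosyltransferase Nampt, the nicotinate phosphoribosyltransferase Naprt, and Nmnat1 and Nmnat3, which add the adenylyl group to NMN. These are 6 of 11846 tested genes with 1 symbol, and they were taken by symbol, which gave 8 of the 31099 probe sets on the array: 1 each for Nmrk2, Nmrk1, Nmnat1 and Nmnat3, and 2 each for Nampt and Naprt. All 8 probe sets passed the filter on dim signals, and none was at the lowest level of its array on any of the 10 arrays. The set was chosen by the signal of Nmrk2, which was higher in pulsed cultures with blebbistatin, so blebbistatin against pulsed cultures is given for all 6 genes as a description with no test.

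RNA came from primary cultures of ventricular heart muscle cells of neonatal Lewis rats, aged 0 to 3 days, measured on Affymetrix arrays. After a recovery phase the cells were kept for 3 days with electric pulses (1 Hz, 2 V/cm) and 10 µmol/L blebbistatin (n = 3 arrays), with the same pulses alone (n = 4), or without pulses (nonpulsed, labelled untreated, n = 3). Blebbistatin inhibits myosin II and stops contraction. No array held blebbistatin without pulses, so blocked contraction and other effects of the drug cannot be told apart. Cells were isolated on 4 occasions, called culture series here, and duplicate experiments were pooled for each array, so replicates are culture series. The p-values weigh a fitted difference between groups against the spread left after group and series levels, that is, how far such differences varied between series. Every group was run in series 2 and 3, while series 1 has no blebbistatin array here and series 4 no nonpulsed array. Precision is limited by the small number of arrays.

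NAD carries electrons between the pathways that burn fuel and the respiratory chain, and it is consumed by sirtuins, poly-ADP-ribose polymerases and NAD glycohydrolases, which release nicotinamide. Cells rebuild it by salvage. Nampt turns nicotinamide into nicotinamide mononucleotide (NMN) and is usually the main route in the heart, Nmrk1 and Nmrk2 make NMN from nicotinamide riboside, and Naprt starts the separate route from nicotinic acid. The NMNAT enzymes add the adenylyl group, Nmnat1 in the nucleus and Nmnat3 in mitochondria. Nmrk2 is the form typical of muscle, and in mouse hearts it is known to increase in models of heart failure.

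Promoter sequence was at hand for 4 of the 6 genes, in RefSeq windows of 300 bases of assembly GRCr8 that run from 250 bases before to 50 after the annotated start. Nmrk2 and Nmrk1 are shown because these sister kinases differed in opposite directions with blebbistatin. Nmnat3 is shown because its blebbistatin arrays stood above all others. The same held for Nmnat1, whose window is not printed and whose matches are given below. Capitals mark matches to the motifs searched.
Nmrk2 (GRCr8 chr7:9165317-9165616, plus strand): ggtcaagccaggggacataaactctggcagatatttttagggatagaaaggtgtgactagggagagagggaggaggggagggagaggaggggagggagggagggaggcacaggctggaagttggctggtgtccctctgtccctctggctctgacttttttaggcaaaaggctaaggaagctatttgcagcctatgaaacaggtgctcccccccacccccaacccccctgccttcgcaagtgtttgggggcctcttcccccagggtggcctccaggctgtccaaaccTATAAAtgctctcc
Nmrk1 (GRCr8 chr1:225475812-225476111, plus strand): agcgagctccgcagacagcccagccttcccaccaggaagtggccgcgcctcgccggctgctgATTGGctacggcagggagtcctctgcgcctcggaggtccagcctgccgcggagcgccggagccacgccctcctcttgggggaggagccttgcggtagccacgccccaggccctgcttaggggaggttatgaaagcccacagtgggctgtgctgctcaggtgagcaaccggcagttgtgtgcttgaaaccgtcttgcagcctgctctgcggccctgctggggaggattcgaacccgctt
Nmnat3 (GRCr8 chr8:107771363-107771662, plus strand): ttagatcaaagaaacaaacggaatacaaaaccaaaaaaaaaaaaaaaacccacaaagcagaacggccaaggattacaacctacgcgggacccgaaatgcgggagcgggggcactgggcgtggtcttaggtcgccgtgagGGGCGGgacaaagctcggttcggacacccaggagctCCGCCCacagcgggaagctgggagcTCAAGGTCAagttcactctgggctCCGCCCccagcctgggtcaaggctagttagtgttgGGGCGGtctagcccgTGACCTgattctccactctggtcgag

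Motifs were picked after the promoters had been read, so the shares of windows do not measure how unusual a match is. Both strands were searched. In Nmrk2 the 1 match was a TATA box (TATAAA), which lies 36 bases after the annotated start, and 14.22% of 33469 rat promoter windows hold this motif. In Nmrk1 it was a CCAAT box on the minus strand (CCAAT, 37.49% of windows), and the window had 67.3% G and C, against 57.3% in Nmrk2. Nmnat3 held 1 element of the estrogen-related receptor (ERR) type (TCAAGGTCA, 0.43% of windows), which contains the shorter nuclear receptor motif AGGTCA (16.18% of windows). It also held AGGTCA once more, on the minus strand, and 4 GC boxes (GGGCGG, 33.06% of windows). Nmnat1 held a GC box and a CCAAT box. None of the 4 windows matched the E-box CACGTG (6.42% of windows), the AP-1 element TGANTCA (7.33%), the antioxidant response core TGACNNNGC (12.06%), the cAMP response element TGACGTCA (1.83%), the M-CAT element CATTCC (14.19%), the MEF2 element (3.29%) or the CArG box (1.64%). A match is a description of letters, and nothing about binding was measured.

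Markers of heart muscle, the cells named in the label, were present beside markers of other cells. In pulsed cultures 12 fibroblast markers had a summed linear signal of 37169 to 62803, beside 83872 to 100684 for 11 heart muscle markers. All 11 measured heart muscle markers were far above the lowest level, which lay at log2 values of 3.32 to 3.46, and the one with the lowest value on any array, Ryr2, had a log2 value of at least 10.31 on every array. Series 1 stood apart in the response to pulsing: 886 of 18393 tested genes and unnamed probe sets differed by more than 1 log2 unit between its pulsed and its nonpulsed array, against 114 in series 2 and 45 in series 3. Changes of named genes between pulsed and nonpulsed cultures are therefore given with and without series 1, and those of second probe sets by series. Changes are log2 changes from a limma fit over all 10 arrays with culture series as a block. A fitted change also draws on the third group and can differ from the differences within series. Series 1, with no blebbistatin array, enters blebbistatin against nonpulsed cultures through its pulsed array.

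Nmrk2 (probe set 1378423_at) had log2 values of 8.44, 9.80 and 7.31 in pulsed cultures with blebbistatin of series 2, 3 and 4. In pulsed cultures the values were 5.72, 6.78, 8.02 and 5.82 in series 1 to 4, and in nonpulsed cultures 5.33, 6.45 and 7.41 in series 1 to 3. Group means were 8.52 ± 1.24 with blebbistatin (SD, n = 3), 6.59 ± 1.07 in pulsed cultures (SD, n = 4) and 6.40 ± 1.04 in nonpulsed cultures (SD, n = 3). The order was blebbistatin, pulsed, nonpulsed, but the groups overlapped, because each was spread over more than 2 log2 units by culture series.

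Within a culture series the picture was much tighter. The blebbistatin array was above its pulsed partner by 1.66, 1.78 and 1.49 in series 2, 3 and 4, and the fitted change was 1.66 (SE 0.11), or 3.15-fold. This is the value that chose the gene, and it ranked number 17 of 18393 by size. Set against nonpulsed cultures, the blebbistatin arrays were higher by 1.99 in series 2 and 2.39 in series 3, with a fitted change of 2.12 (SE 0.12), also without a test because it shares those arrays.

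The comparison of pulsed with nonpulsed cultures did not choose the gene, but it shares the pulsed arrays with the one that did, and the blebbistatin arrays enter its fit, so its test is not independent of the choice. Pulsed arrays were above their nonpulsed partners by 0.39, 0.33 and 0.61 in series 1, 2 and 3. The fitted change was 0.47 (SE 0.11, 95% interval 0.21 to 0.73), and it did not pass (limma, unadjusted p = 0.00326, Benjamini-Hochberg adjusted p = 0.490). In this comparison 0% of the tested features passed, and 9.1% had an unadjusted p under 0.05. By the probe set with the highest mean, Nmrk2 alone of the 6 genes was below that unadjusted level, and the second probe set of Naprt, described further on, was below it too. Without series 1 the change was 0.51 (SE 0.13).

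Nmrk2 also differed widely between culture series. Fitted series levels relative to series 1 were 1.07 in series 2, 2.26 in series 3 and -0.017 in series 4, with a residual SD of 0.14. The range over series was 2.27, and 1.11 (limma, adjusted p = 0.0420) without series 3. An F test over the 4 series, added after the values were seen, passed for Nmrk2 (limma, adjusted p = 0.00102) and for Nmrk1 (adjusted p = 0.0120), while 7.97% of all tested features passed. It did not pass for Nampt (adjusted p = 0.119), Nmnat1 (0.423), Nmnat3 (0.683) or Naprt (0.437). The call for Nmrk1 was lost in 4 of 20 alternatives, namely without the pulsed array of series 2 (adjusted p = 0.0629), without the blebbistatin array of series 4 (0.0571), and without all of series 2 (0.143) or series 4 (0.0629).

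**Figure D1:**
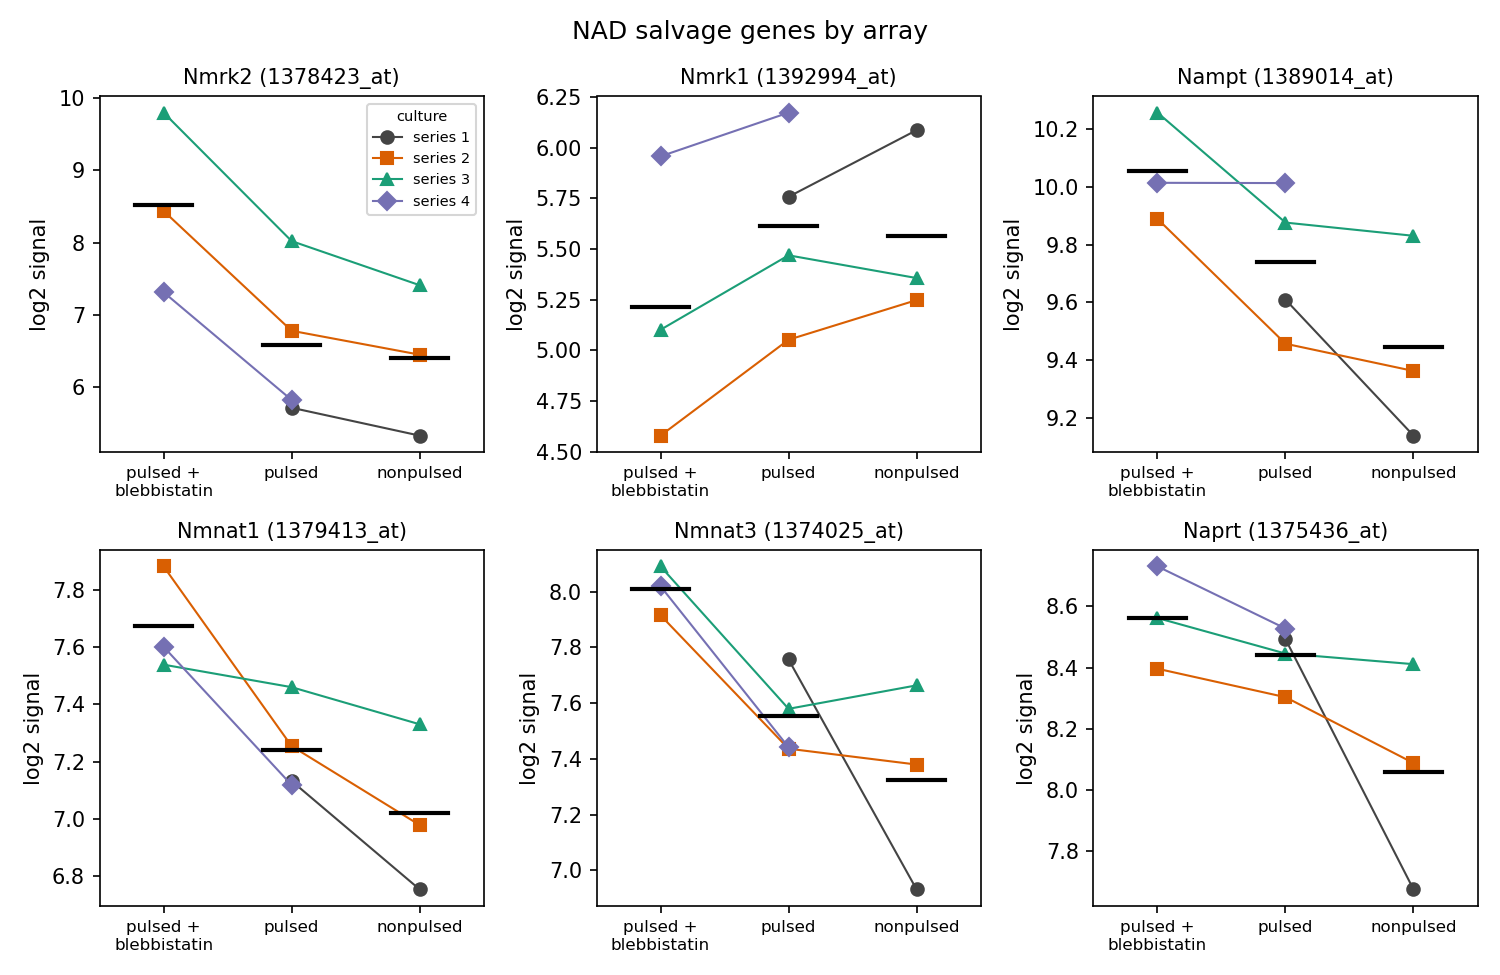
Log2 signal of the 6 NAD salvage genes on each array, with pulsed plus blebbistatin, pulsed and nonpulsed cultures from left to right. Points joined by a line come from the same culture series and black bars are group means. For Nmrk2 the lines run nearly parallel at different heights, from 5.33 to 9.80, while for Nmrk1 the blebbistatin array is the lowest point of each line that has one.

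Nmrk1 (probe set 1392994_at), the kinase form found in most tissues, was the 1 gene of the set that was lower with blebbistatin. It had log2 values of 4.58, 5.10 and 5.96 in blebbistatin cultures of series 2, 3 and 4, against 5.76, 5.05, 5.47 and 6.17 in pulsed cultures of series 1 to 4 and 6.09, 5.25 and 5.36 in nonpulsed cultures of series 1 to 3. The blebbistatin array was the lowest of its series each time, and the groups overlapped across series. The dimmest values, 4.58 and 5.05, lay below the level of 5.09 that the mean of a probe set had to reach, which limits how well its differences can be seen.

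Against pulsed cultures the Nmrk1 differences were -0.47, -0.37 and -0.22 in series 2, 3 and 4, with a fitted change of -0.32 (SE 0.12). Against nonpulsed cultures the blebbistatin arrays had a fitted change of -0.48 (SE 0.13), which did not pass (limma, unadjusted p = 0.00761, adjusted p = 0.111). Pulsing alone gave a fitted change of -0.16 (SE 0.12, adjusted p = 0.701 in limma), with differences of -0.33, -0.20 and 0.11 in series 1, 2 and 3, and -0.076 (SE 0.13) without series 1. Nmrk1 was high in series 1 and 4, the series in which Nmrk2 was low.

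Nampt, which makes NMN from nicotinamide, is given first by probe set 1389014_at. Its log2 values were 9.89, 10.26 and 10.01 in blebbistatin cultures of series 2, 3 and 4, against 9.61, 9.46, 9.88 and 10.01 in pulsed cultures of series 1 to 4 and 9.14, 9.36 and 9.83 in nonpulsed cultures of series 1 to 3. All 3 blebbistatin arrays were above all 3 nonpulsed arrays, as was so for 18.1% of all tested features, while the pulsed arrays overlapped both groups. Against pulsed cultures the differences were 0.43 and 0.38 in series 2 and 3 and 0.00093 in series 4, with a fitted change of 0.23 (SE 0.12).

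The second Nampt probe set (1396262_at) behaved alike in that comparison, with differences of 0.39, 0.57 and -0.0026 in series 2, 3 and 4. Its blebbistatin arrays, at log2 values of 7.18 to 7.71, overlapped the nonpulsed arrays at 6.51 to 7.47. Against nonpulsed cultures blebbistatin gave a fitted change of 0.48 (SE 0.14, limma, adjusted p = 0.117) for 1389014_at and 0.39 (SE 0.17, adjusted p = 0.237) for 1396262_at. For pulsing alone the fitted changes were 0.24 (SE 0.12, adjusted p = 0.585) and 0.12 (SE 0.15, adjusted p = 0.830) in limma, the second from differences of 0.44, 0.12 and -0.33 in series 1, 2 and 3. The probe sets differed in series 3, where the difference of pulsed minus nonpulsed was 0.046 by 1389014_at and -0.33 by 1396262_at. Without series 1 the change of 1389014_at was 0.14 (SE 0.13).

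Nmnat1 (1379413_at) and Nmnat3 (1374025_at), which complete the synthesis of NAD in nucleus and mitochondria, were the 2 genes whose blebbistatin arrays lay above every pulsed and every nonpulsed array. Nmnat3 had log2 values of 7.91, 8.09 and 8.02 in blebbistatin cultures, against 7.76, 7.44, 7.58 and 7.44 in pulsed cultures of series 1 to 4 and 6.93, 7.38 and 7.66 in nonpulsed cultures. Its blebbistatin arrays were close together, with a mean of 8.01 ± 0.09 (SD, n = 3), against 7.55 ± 0.15 in pulsed cultures (SD, n = 4) and 7.33 ± 0.37 in nonpulsed cultures (SD, n = 3). Differences from the pulsed partner were 0.48, 0.51 and 0.58 in series 2, 3 and 4. The fitted change was smaller, 0.42 (SE 0.17), and it was 0.52 (SE 0.088) without series 1.

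Nmnat1 had log2 values of 7.88, 7.54 and 7.60 in blebbistatin cultures, against 7.13, 7.25, 7.46 and 7.12 in pulsed cultures of series 1 to 4 and 6.75, 6.98 and 7.33 in nonpulsed cultures. The differences from the pulsed partner were uneven, 0.63 in series 2, 0.079 in series 3 and 0.48 in series 4, with a fitted change of 0.37 (SE 0.14). Over all tested features, 6.34% had blebbistatin arrays above every pulsed array and 18.1% had them above every nonpulsed array. The rule used the first of these comparisons, and nothing is read from that count.

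Against nonpulsed cultures, blebbistatin gave fitted changes of 0.67 for Nmnat3 (SE 0.19, limma, unadjusted p = 0.00955, adjusted p = 0.117) and 0.62 for Nmnat1 (SE 0.16, unadjusted p = 0.00544, adjusted p = 0.100). In series 2 and 3, which held both groups, the differences were 0.54 and 0.43 for Nmnat3 and 0.90 and 0.21 for Nmnat1. Without series 1 the changes were 0.49 (SE 0.10) for Nmnat3 and 0.58 (SE 0.17) for Nmnat1. Both genes passed only with a random replicate block in place of a fixed one (changes of 0.67 and 0.64, adjusted p = 0.0427 and 0.0384), a setting in which 1020 features passed in place of 63. For pulsing alone Nmnat1 had differences of 0.38, 0.28 and 0.13 in series 1, 2 and 3 and a fitted change of 0.24 (SE 0.14, limma, adjusted p = 0.630), or 0.18 (SE 0.17) without series 1. Nmnat3 rested on series 1 there. Its differences were 0.82, 0.057 and -0.084, and its change was 0.24 (SE 0.17, limma, adjusted p = 0.686) with series 1 and -0.027 (SE 0.10) without it.

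Naprt, the entry from nicotinic acid, differed least with blebbistatin. By 1375436_at it had log2 values of 8.40, 8.56 and 8.73 in blebbistatin cultures, against 8.49, 8.30, 8.45 and 8.53 in pulsed cultures of series 1 to 4 and 7.68, 8.09 and 8.41 in nonpulsed cultures. Blebbistatin and pulsed arrays overlapped, and the differences of 0.093, 0.12 and 0.20 in series 2, 3 and 4 were near the residual SD of 0.19. The fitted change was 0.056 (SE 0.15, 95% interval -0.29 to 0.41), and 0.14 (SE 0.091) without series 1. By the second probe set, 1395411_at, it was 0.039 (SE 0.098).

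Between pulsed and nonpulsed cultures the probe sets of Naprt differed in how far they rested on series 1. By 1395411_at the pulsed arrays, at log2 values of 7.69, 7.26, 7.52 and 7.70, lay above the nonpulsed arrays at 7.09, 6.92 and 7.26, where 6.3% of tested features had pulsed arrays above every nonpulsed array. With differences of 0.60, 0.34 and 0.26 in series 1, 2 and 3, the fitted change was 0.40 (SE 0.098) and did not pass (limma over every probe set, unadjusted p = 0.00419, adjusted p = 0.480). By 1375436_at it was 0.33 (SE 0.15, limma, adjusted p = 0.561), with differences of 0.82, 0.22 and 0.035 in series 1, 2 and 3 and 0.11 (SE 0.11) without series 1. Blebbistatin against nonpulsed cultures gave 0.39 (SE 0.17, limma, adjusted p = 0.229) by 1375436_at and 0.44 (SE 0.11, adjusted p = 0.0972) by 1395411_at. By 1375436_at the differences in series 2 and 3 were 0.31 and 0.15, and the change without series 1 was 0.25 (SE 0.11).

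**Figure D2:**
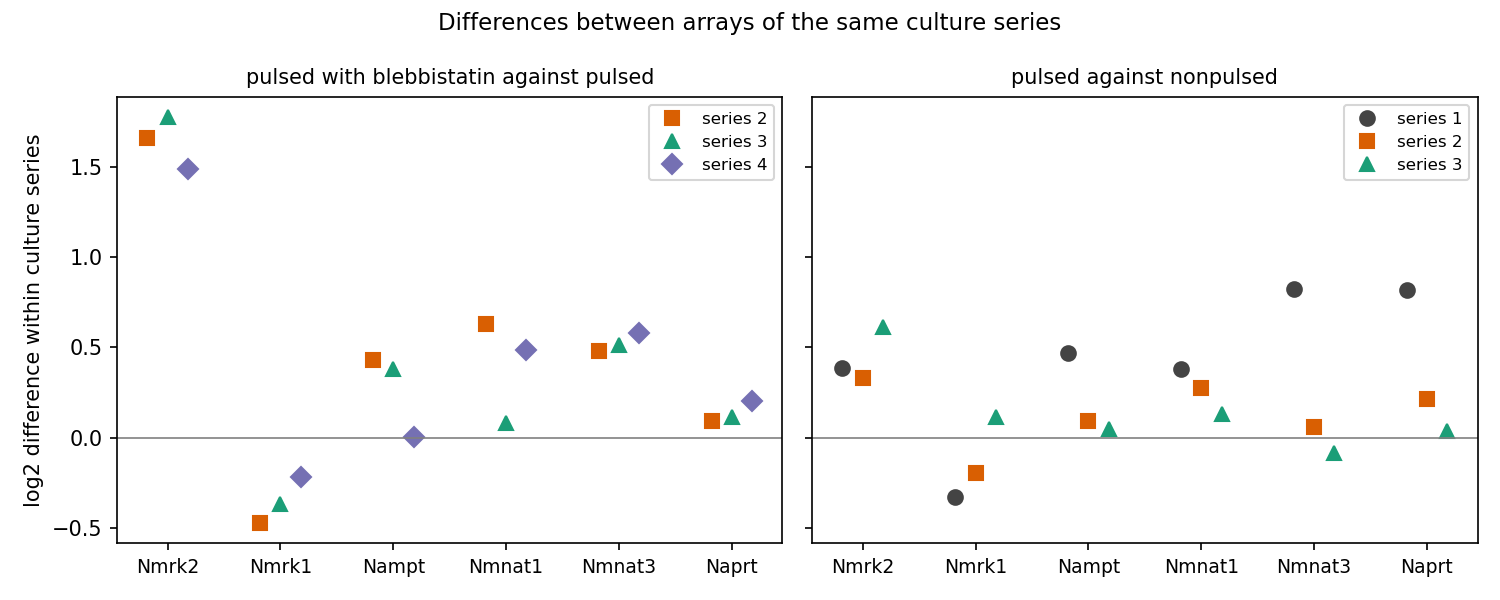
Log2 difference between arrays of the same culture series for each gene, pulsed with blebbistatin minus pulsed on the left and pulsed minus nonpulsed on the right. With blebbistatin, Nmrk2 lies between 1.49 and 1.78 and Nmrk1 between -0.47 and -0.22. On the right, series 1 has the widest differences for Nmnat3 and Naprt, 0.82 each.

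Read across the set with all series in the fit, 5 of the 6 genes had a change above 0 in each of the 3 comparisons, Nmrk1 being the exception. Over all features 55.7% were above 0 with blebbistatin against pulsed cultures, 61.4% with blebbistatin against nonpulsed cultures and 62% with pulsing alone, and the 5 include Nmrk2, which chose the set. Comparisons share arrays, so these counts are not independent of each other. With blebbistatin against nonpulsed cultures 0 of the 5 genes tested passed the adjusted threshold (limma), where 0.343% of all features passed. Below an unadjusted p of 0.05 in limma there were 4 of the 5 (Nmrk1, Nampt, Nmnat1 and Nmnat3), and Naprt missed it by its first probe set, while 22.6% of all features were below it. The median change of the 6 genes was 0.55, beside 0.075 over all features. With blebbistatin against pulsed cultures the 6 genes had a median of 0.30, beside 0.024 over all features, of which 0.0163% passed. Both medians include Nmrk2, and the second comparison is the one that chose the set, so nothing is read from its median. Among the other 5 genes the middle change was that of Nampt, 0.48 against nonpulsed and 0.23 against pulsed cultures. For pulsing alone the median was 0.24, beside 0.047 over all features, and this rested in part on series 1. Without series 1 Nmnat3 also fell below 0 with pulsing, at -0.027, beside Nmrk1 at -0.076. The others had 0.51 (Nmrk2), 0.18 (Nmnat1), 0.14 (Nampt) and 0.11 (Naprt). The 11 heart muscle markers differed alongside the set in both comparisons with nonpulsed cultures. Their median change was 0.28 with blebbistatin (9 of 11 above 0) and 0.28 with pulsing alone (10 of 11 above 0), and 0.0027 with blebbistatin against pulsed cultures (6 of 11 above 0). Their part in the result was not tested.

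**Figure D3:**
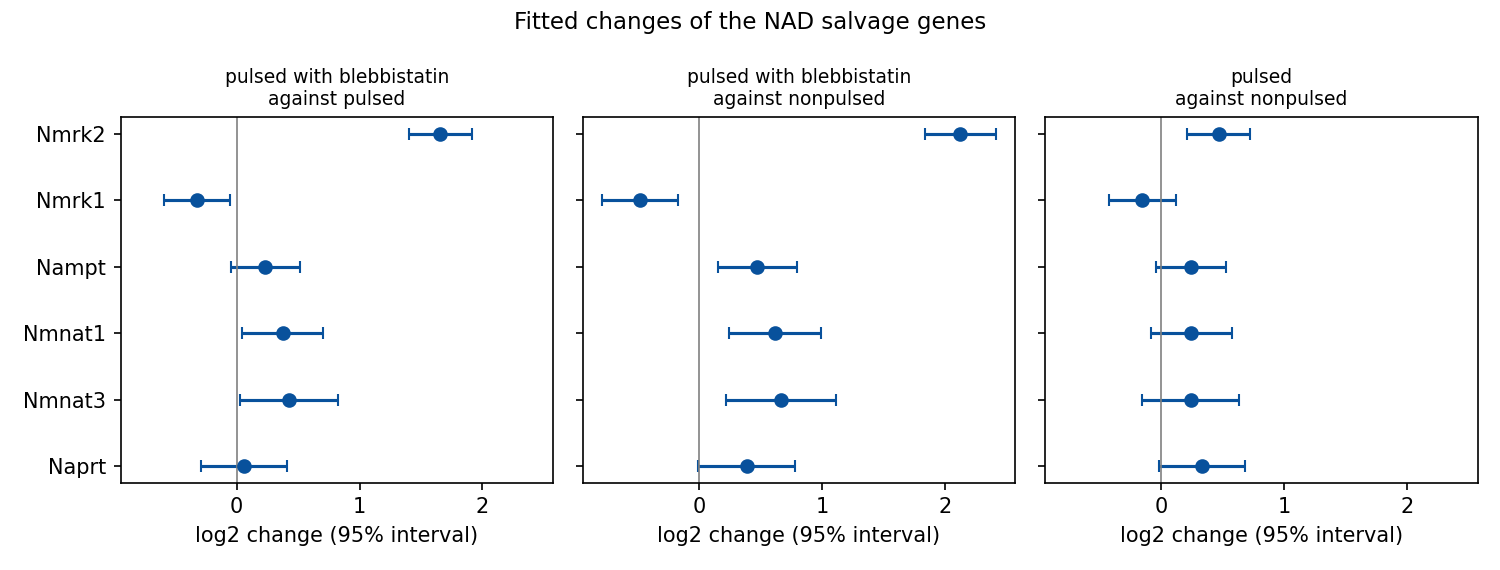
Fitted log2 change of each gene with its 95% interval in the 3 comparisons, pulsed with blebbistatin against pulsed, the same against nonpulsed, and pulsed against nonpulsed. Nmrk2 stands at 1.66 and 2.12 in the first and second panel and at 0.47 in the third, and Nmrk1 is the 1 gene left of 0 in all 3.

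After the mean of each culture series was subtracted, Nmrk1 ran against the other genes over the 10 arrays, with Pearson r of -0.85 with Nmrk2 and -0.92 to -0.70 with Nampt, Nmnat1, Nmnat3 and Naprt. Without that step the r with Nampt was -0.14. These values describe arrays that share culture series and treatments. The genes with the most Nmrk2-like pattern over the 10 arrays, among 11845, were Dcp1b (r 0.98), a subunit of the mRNA decapping complex, Rcl1 (0.98), a protein of ribosomal RNA processing, Pgd (0.96), 6-phosphogluconate dehydrogenase, Sbno1 (0.96) and Ghitm (0.96), a protein of the inner mitochondrial membrane.

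After subtraction of series means the nearest to Nmrk2 were Slc25a33 (r 0.99), a mitochondrial carrier of pyrimidine nucleotides, Rcl1 (0.99), Sh3glb1 (0.99), Trit1 (0.98), a tRNA-modifying enzyme, and Naxe (0.98), an epimerase that repairs hydrated NADH and NADPH. Their changes with blebbistatin against pulsed cultures were far smaller than that of Nmrk2, at 0.54 for Slc25a33, 0.32 for Rcl1, 0.31 for Trit1, 0.23 for Sh3glb1 and 0.19 for Naxe. They were picked by a pattern that contains this comparison, and Nmrk2 was chosen for its rise there. Neither their direction nor their smaller size is therefore a result. For Nampt the nearest over the 10 arrays were Dhx16 (r 0.96), Foxo1 (0.96), Vamp1 (0.95), Wdr59 (0.95) and Kcnip2 (0.95). After subtraction of series means they were Nsun4 (r 0.99), Slc25a22 (0.99), Gsg1l (0.99), Fzd6 (0.98) and Rnf185 (0.98).

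The rest of NAD metabolism was followed through 7 further lists with 102 tested genes. In the 3 comparisons 0 genes of these lists passed the adjusted threshold (limma), and the values that follow are fitted log2 changes without a call. Over all features, an unadjusted p under 0.05 was reached upward by 6.23% and downward by 5.6% (11.8% in all) with blebbistatin against pulsed cultures, by 15.8% and 6.8% with blebbistatin against nonpulsed cultures, and by 7.83% and 1.27% with pulsing alone. In the same order, 55.7%, 61.4% and 62% of all features had a change above 0, and the median changes were 0.024, 0.075 and 0.047. With blebbistatin against nonpulsed cultures only series 2 and 3 held both groups. For Kyat3, Enpp1, Nudt13, Gpd1, Got1, Prkaa2, Lama2 and Pxn the fitted change there was larger in size than the difference within either series.

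For the other synthesis genes (10 of 16 tested, with Kynu, Kmo, Tdo2, Ido1 and Aadat too dim), 2 had an unadjusted p under 0.05 upward for pulsing alone, 0 with blebbistatin against pulsed cultures and 3 with blebbistatin against nonpulsed cultures. Nadk2, the mitochondrial NAD kinase, had 0.63 (SE 0.17) with blebbistatin against nonpulsed cultures and 0.45 (SE 0.15) for pulsing alone, or 0.25 (SE 0.13) for pulsing without series 1. Its log2 values were 8.66, 8.93 and 8.84 in blebbistatin cultures, 8.82, 8.65, 8.52 and 8.50 in pulsed cultures of series 1 to 4, and 7.94, 8.36 and 8.26 in nonpulsed cultures, which lay below all others. Over all tested features, 6.3% had pulsed arrays above every nonpulsed array and 18.1% had blebbistatin arrays above every nonpulsed array. Of the kynurenine route, Kyat3 had 0.38 (SE 0.18) and Kyat1 0.22 (SE 0.11) with blebbistatin against pulsed cultures, Kyat3 had 0.56 (SE 0.20) against nonpulsed cultures, and Afmid had 0.24 (SE 0.10) for pulsing alone with series 1 and 0.24 (SE 0.13) without it.

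Of the NAD-consuming enzymes 23 of 28 were tested. Of these, 0 had an unadjusted p under 0.05 with blebbistatin against pulsed cultures. With blebbistatin against nonpulsed cultures 2 did so upward and 1 downward, and for pulsing alone 1 did so downward. Bst1, a surface NAD glycohydrolase, had -0.69 (SE 0.22) with blebbistatin against nonpulsed cultures, at a mean of 6.23 ± 0.22 (SD, n = 3) against 6.83 ± 0.28 (SD, n = 3). Parp16, an ADP-ribosyltransferase of the endoplasmic reticulum, had 0.48 (SE 0.21) against pulsed and 0.65 (SE 0.24) against nonpulsed cultures. Sirt3, the mitochondrial sirtuin, had 0.42 (SE 0.18) with blebbistatin against pulsed cultures but was higher in 2 of 3 series. For pulsing alone the widest changes were those of Parp12 (-0.40, SE 0.15) and Art3 (0.33, SE 0.15), which were -0.27 (SE 0.16) and 0.15 (SE 0.15) without series 1. The median over the list was 0.058 with blebbistatin against pulsed cultures, 0.16 with blebbistatin against nonpulsed cultures and 0.075 with pulsing alone.

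Enzymes that handle precursors and break NAD down were the most divided list, with 13 of 13 tested. With blebbistatin against nonpulsed cultures 5 had an unadjusted p under 0.05 upward and 3 downward, and against pulsed cultures 4 upward and 1 downward. Nudt13, a mitochondrial hydrolase that in mouse splits NADH and NADPH, had log2 values of 6.46, 6.65 and 6.26 in blebbistatin cultures. They were 5.95, 5.59, 5.90 and 5.34 in pulsed cultures of series 1 to 4 and 4.66, 5.33 and 5.68 in nonpulsed cultures, so that the blebbistatin arrays lay above all others. Over all tested features, 6.34% had blebbistatin arrays above every pulsed array and 18.1% above every nonpulsed array. The nonpulsed value of series 1, 4.66, lay below the filter level of 5.09. The fitted changes of Nudt13 were 0.72 (SE 0.20, limma, adjusted p = 0.308) with blebbistatin against pulsed and 1.28 (SE 0.23, adjusted p = 0.0651) against nonpulsed cultures. Both passed without series 1, at 0.84 (limma, adjusted p = 0.0483) and 1.07 (adjusted p = 0.0363). In that setting 30 features passed against pulsed cultures in place of 3, and 46 against nonpulsed cultures in place of 63. For pulsing alone Nudt13 had 0.56 (SE 0.20), and 0.22 (SE 0.11) without series 1. Nt5m, a mitochondrial nucleotidase, had 0.41 (SE 0.12) against pulsed cultures, and Enpp1, an ectoenzyme that splits nucleotides, -0.72 (SE 0.31) with blebbistatin and -0.41 (SE 0.27) with pulsing alone, both against nonpulsed cultures. Without series 1 the change of Enpp1 with pulsing was -0.16 (SE 0.30).

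Carriers of NAD precursors gave little, with 6 of 10 tested. Slc16a1, a monocarboxylate carrier, had 0.44 (SE 0.15) for pulsing alone and 0.32 (SE 0.17) with blebbistatin against nonpulsed cultures, but there it was higher in 1 of 2 series. Slc7a5, which carries large amino acids such as tryptophan, had -0.13 (SE 0.19) with blebbistatin against pulsed, -0.45 (SE 0.22) with blebbistatin against nonpulsed and -0.32 (SE 0.19) with pulsing alone. With pulsing it was lower in 2 of 3 series. Without series 1 the changes with pulsing were 0.24 (SE 0.14) for Slc16a1 and -0.39 (SE 0.24) for Slc7a5. Slc12a8 had -0.19 (SE 0.14) with blebbistatin against pulsed cultures, lower in 2 of 3 series.

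The enzymes that pass electrons to and from NAD differed more evenly. Of 15 redox shuttle genes, 14 had a change above 0 with blebbistatin against pulsed cultures (median 0.14), 15 with blebbistatin against nonpulsed cultures (median 0.35) and 14 with pulsing alone (median 0.21). An unadjusted p under 0.05 was reached upward by 1, 7 and 4 of the 15. Gpd1, the cytosolic glycerol-3-phosphate dehydrogenase, had 0.36 (SE 0.24) and 0.66 (SE 0.27) with blebbistatin against pulsed and nonpulsed cultures. Me1, the cytosolic malic enzyme, had 0.34 (SE 0.09) against pulsed cultures, and Got1, of the malate-aspartate shuttle, 0.62 (SE 0.23) against nonpulsed cultures. For pulsing alone Slc25a13, the aspartate-glutamate carrier, had 0.41 (SE 0.24) and Idh2, the mitochondrial NADP-dependent isocitrate dehydrogenase, 0.37 (SE 0.14). Both rested on series 1, and without it they had 0.059 (SE 0.18) and 0.17 (SE 0.11).

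Among 17 tested regulators of energy metabolism (Ppara was too dim), 15 had a change above 0 with blebbistatin against pulsed cultures (median 0.083), 14 against nonpulsed cultures (0.25) and 13 with pulsing alone (0.19). An unadjusted p under 0.05 was reached upward by 1, 6 and 5 of them. Ppargc1b, a coactivator of mitochondrial genes, had 0.49 (SE 0.33) with blebbistatin against pulsed, 1.52 (SE 0.37) with blebbistatin against nonpulsed and 1.03 (SE 0.33) with pulsing alone. Its nonpulsed arrays ran widely, at log2 values of 5.98, 6.96 and 8.05 in series 1, 2 and 3. Prkaa2, a catalytic subunit of the energy sensor AMPK, had 0.83 (SE 0.28) with blebbistatin against nonpulsed and 0.63 (SE 0.25) with pulsing alone. In series 2 and 3 its log2 values were 10.89 and 11.08 with blebbistatin, against 10.27 and 10.70 in nonpulsed cultures. Pparg had 0.49 (SE 0.30) with blebbistatin against pulsed cultures, higher in 2 of 3 series. Without series 1 the changes with pulsing were 0.63 (SE 0.31) for Ppargc1b and 0.24 (SE 0.16) for Prkaa2.

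Nmrk2 is also known as a muscle protein that binds integrin beta 1, so genes of integrin adhesion were listed. Of 18 tested, 4 had a change above 0 with blebbistatin against pulsed cultures, 2 against nonpulsed cultures and 9 with pulsing alone, and 4, 3 and 0 had an unadjusted p under 0.05 downward. Lama5, a laminin chain, had -0.45 (SE 0.12) and Ilk, the integrin-linked kinase, -0.27 (SE 0.08) with blebbistatin against pulsed cultures. Pxn, paxillin, had -0.31 (SE 0.12) and Lama2 0.47 (SE 0.21) with blebbistatin against nonpulsed cultures. For pulsing alone Lama2 had 0.45 (SE 0.18) and Lama5 0.17 (SE 0.12), and without series 1 they had 0.19 (SE 0.15) and 0.11 (SE 0.15).

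**Figure D4:**
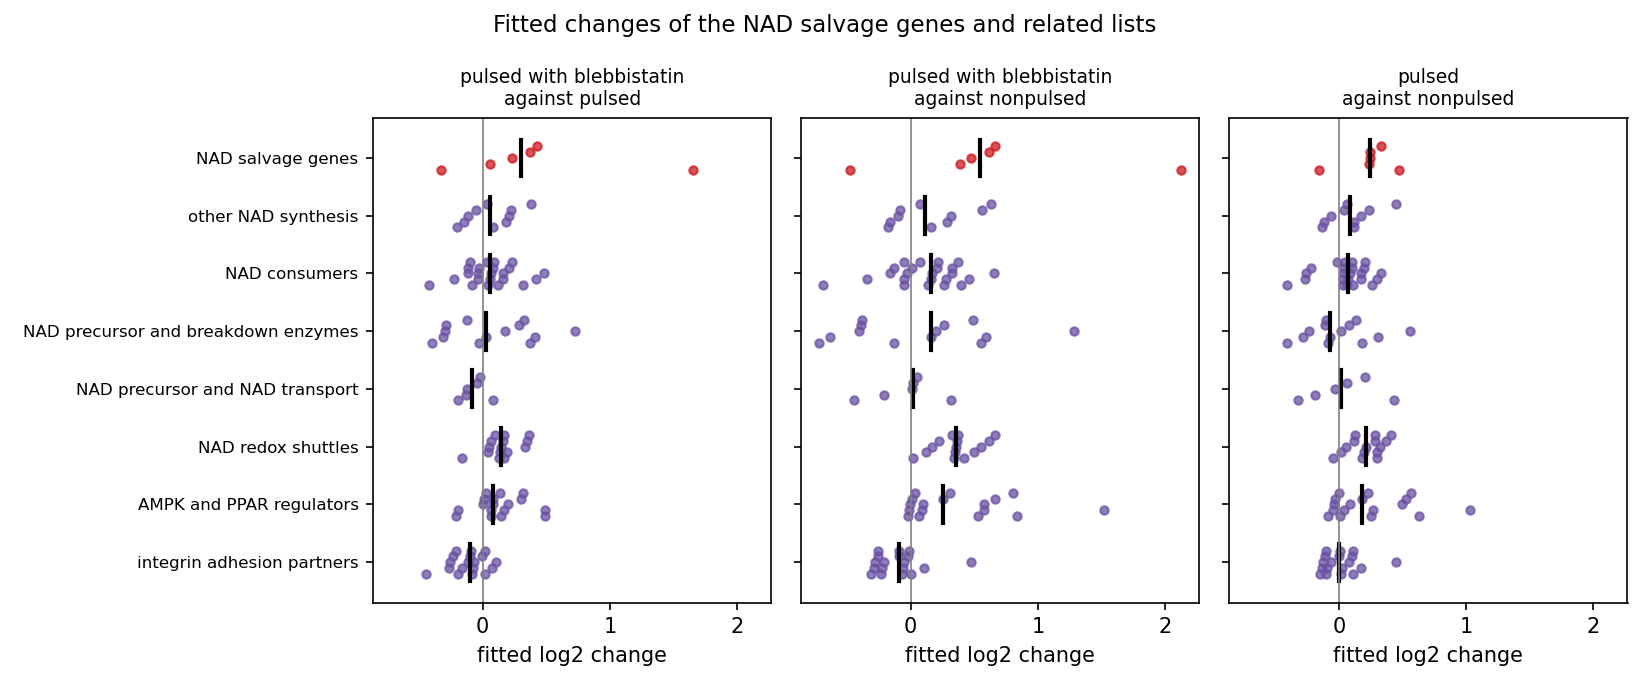
Fitted log2 change of every tested gene of the NAD salvage set (red) and of 7 related lists (purple) in the 3 comparisons, with black bars at each list's median. Nmrk2 is the red point at 1.66 and 2.12 in the first and second panel, and the redox shuttle medians are 0.14, 0.35 and 0.21.

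Markers of other cells differed beside these values. In mixed cultures fewer cells of a type and less RNA per cell cannot be told apart. The summed linear signal of 11 smooth muscle and pericyte markers was 10289 to 13741 with blebbistatin, against 16338 to 20563 in pulsed and 15337 to 23865 in nonpulsed cultures, and 10 of the 11 had a change below 0 with blebbistatin against pulsed cultures (median -0.66). For 12 fibroblast markers the sums were 32036 to 52919 with blebbistatin, 37169 to 62803 in pulsed and 40438 to 63238 in nonpulsed cultures, and 10 of the 12 were below 0 with blebbistatin against pulsed cultures (median -0.28, 8 lower in every series). For 7 endothelial markers they were 1444 to 2106, 1410 to 2212 and 1364 to 2056, and for 10 macrophage and leukocyte markers, of which C1qa was at the lowest level on an array, 1586 to 3216, 1713 to 5412 and 1897 to 6478. Of these, 5 of 7 endothelial (median -0.13) and 9 of 10 macrophage and leukocyte markers (median -0.26) were below 0 with blebbistatin against pulsed cultures. The 11 heart muscle markers summed to 89888 to 93533, 83872 to 100684 and 67355 to 90238. The GAPDH control, a sign of RNA quality, had a log2 difference between its 3' and 5' probe sets of 0.20 ± 0.021 (SD, n = 3) with blebbistatin, 0.11 ± 0.045 in pulsed cultures (SD, n = 4) and 0.13 ± 0.064 in nonpulsed cultures (SD, n = 3). For beta-actin this difference was 0.72 ± 0.041 with blebbistatin, 0.67 ± 0.053 in pulsed and 0.59 ± 0.12 in nonpulsed cultures, in the order of the group means of Nmrk2, Nampt, Nmnat1, Nmnat3 and Naprt, and for hexokinase it was 0.92 ± 0.11, 0.95 ± 0.11 and 0.89 ± 0.032. The part of these in the results was not tested.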

How the data were processed

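Per the labels' protocols, RNA was isolated with Trizol and biotin-labelled before hybridisation. The authors deposited log2 values, one for every probe set on every array, which according to the submitters' processing notes came from PLIER (Affymetrix Expression Console 1.1). Neither the PLIER settings nor the log base is stated, and base 2 was inferred from the lowest level. Array medians of 6.57 to 6.78 called for no further scaling.

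Control probe sets (57) were left out, as was the 25% with the lowest mean log2 value (below 5.09). Where a gene kept several probe sets, the highest mean decided, giving 18393 tested features, 11846 of them with 1 symbol from a platform annotation. When compared with GRCr8 gene names, 0 symbols needed updating. Titles gave groups and culture series. The design text mentions 3 arrays per treatment, but 4 arrays are labelled pulsed, and all were used.

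The tests came from limma 3.58.1 (R 4.3.3), two-sided, with culture series as a fixed block and Benjamini-Hochberg adjustment over all features at 0.05; the procedure was tested on simulated data. Second probe sets were fitted with every probe set kept. The pairing of arrays by series was taken from the titles. Deviations from group means correlated at 0.35 to 0.64 (median 0.42) in the 8 pairs of arrays from 1 series. In 25 pairs across series they correlated at -0.58 to 0.49 (median -0.25), so the ranges overlapped.

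The members and lists were chosen with earlier results of these data known. Named genes were, per list and comparison, those that passed, or else the 2 widest changes, and the 5 nearest to Nmrk2 and Nampt by Pearson r. Motifs were picked after the promoters had been read, and the F test over series after the data were seen. The fits were repeated with no block, a random block (statmod 1.5.0), fewer arrays, scaling, filters, probe set rules, a trended prior, and leaving out each array and each series.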

Additional observations from a re-analysis of the deposited data

How the results depend on the processing

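Nmrk2 kept its direction in all 25 alternatives of each comparison. With blebbistatin against pulsed cultures its log2 change ran from 1.55 to 1.93, the highest being 1.93 with no replicate block, and against nonpulsed cultures from 1.95 to 2.22. For pulsing alone it ran from 0.19 (no replicate block) to 0.54 and passed in 0 of 25. Nampt and Nmnat1 also kept their direction in all alternatives of the 3 comparisons. Directions reversed in small changes: Nmrk1 for pulsing alone with no replicate block (0.049), Nmnat3 for pulsing alone without series 1 or either of its arrays (-0.027 in each case, and up to 0.39 with other arrays left out), Naprt with blebbistatin against pulsed cultures (-0.015 when the pulsed array of series 3 was left out, -0.011 when series 4 or either of its arrays was, and up to 0.14), and Slc7a5 in that comparison (-0.25 to 0.027, above 0 without the blebbistatin array of series 2). Of the group changes of the 6 genes that were tested, none passed with a fixed replicate block or with no block. Nmrk2 was not tested with blebbistatin, and against pulsed cultures its SE was 0.71 with no block, beside 0.11 with the fixed block.

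Counts of features that passed depended on the setting. For pulsing alone the count was 0 throughout. With blebbistatin against pulsed cultures it was 3, and 1 with no replicate block, 7 with a random block, 0 with only the 2 groups, 30 with only the series holding both, 0 without a filter, 6 with the lowest 50% left out, 8 with a trended prior and 0 to 30 with arrays or series left out (30 without series 1 or either of its arrays, 0 without series 2 or any of its arrays, 0 without series 3 or its blebbistatin or pulsed array, and 1 without series 4 or either of its arrays). With blebbistatin against nonpulsed cultures it was 63, and 30 with no replicate block, 1020 with a random block, 2, 19 and 1 in the fits of the 2 groups, of the series holding both and without a filter, 110 with every probe set, 163 with a trended prior and 0 to 46 with arrays or series left out (46 without series 1, 0 without series 2 or series 3, and 8 without series 4). With the random block Nudt13 (1.26, limma, adjusted p = 0.0215), Nadk2 (0.63, adjusted p = 0.0374) and Ppargc1b (1.68, adjusted p = 0.0336) passed in this comparison. The cause was not tested. Signals near the lowest level limit what can be seen of Nmrk1. Background correction could not be varied on the deposited values.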

Other observations

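Other enzymes of NAD precursor use were singled out after their values were seen and are given as values without a call (limma, culture series as a block). Nnmt, which methylates nicotinamide and so removes it from salvage, had a log2 change of -0.40 (SE 0.13, adjusted p = 0.344) with blebbistatin against pulsed cultures and -0.63 (SE 0.15, adjusted p = 0.0926) against nonpulsed cultures, and its blebbistatin array was lower in every culture series that held both groups. Aox1, an oxidase that acts on methylated nicotinamide, had 0.37 (SE 0.12, adjusted p = 0.327) and 0.56 (SE 0.13, adjusted p = 0.0933) in the same comparisons. Pnp, which splits nicotinamide riboside among other nucleosides, had -0.40 (SE 0.14, adjusted p = 0.164) with blebbistatin against nonpulsed cultures. Nudt9 and Nudt12, hydrolases of ADP-ribose and of NADH, had 0.26 (SE 0.10, adjusted p = 0.193) and 0.59 (SE 0.17, adjusted p = 0.119) there. Esrra, the receptor ERR alpha, had 0.57 (SE 0.13, adjusted p = 0.0876) and Ppargc1a 0.80 (SE 0.22, adjusted p = 0.113) with blebbistatin against nonpulsed cultures.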
